A study of Homo sapiens with 2 samples.

Results

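Among the ChIP-seq peaks of dCas9-BFP-DNMT3A in HEK293T cells, 530 held many tags but had no seed match of *uPA* gRNA T2 at the summit. They were selected on measured values. A peak was a member if it lay on chromosomes 1 to 22 or X, held 65 or more ChIP tags, and had no site within 70 bp of its summit, on either strand, at which the last 5 bases of T2 were followed by an NGG PAM. The deposited list has 7757 peaks, of which 7748 lie on these chromosomes, so the members were 530 of 7748. Of the 6412 peaks without a T2 seed at the summit, 8.27% had 65 or more tags. Of the remaining peaks, 5882 had fewer tags and no T2 seed, 195 had 65 or more tags and a T2 seed, and 1141 had fewer tags and a T2 seed.

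HEK293T is an established human embryonic kidney cell line that carries the SV40 large T antigen. The cells had received 500 ng of a plasmid encoding dCas9 joined to blue fluorescent protein (BFP), an HA tag and the catalytic domain of human DNMT3A, together with 500 ng of plasmids for the *uPA* gRNAs. Chromatin was collected after 48 hours and precipitated with an anti-HA antibody, while the input sample had no antibody. GEO's labels give 1 ChIP sample and 1 input sample although the methods speak of triplicates, so no spread between replicates could be measured. The ChIP library had 62723055 tags of 49 bp and the input 62723050, of which 44934315 and 46375481 were left after removal of duplicates. Exact 95% intervals are given for shares and medians. They cover counting error only, and since peaks of 1 library are not replicates, no test was made.

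Cas9 is led to DNA by a gRNA whose bases pair with the target next to an NGG PAM. Pairing starts at the PAM end of the gRNA, the seed, and the catalytically dead form (dCas9) can bind, for a short time, sites that match little more than the seed. DNMT3A is a *de novo* DNA methyltransferase whose catalytic domain forms the C-terminal end of the protein. In a ChIP-seq peak call, tags are counted over a stretch of DNA and compared with a background modelled from the input, so that a long stretch with modest enrichment can gather as many tags as a short and strong one. The number of tags, the fold enrichment, the MACS *P* value and the false discovery rate (FDR) all come from the same call as the rule and are given as a description.

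The 5 *uPA* gRNAs that were present together in the cells are shown 5′ to 3′, because the members are defined by what their summits lack. Capitals mark the last 5 bases, the seed.
T1: gtgagcgttgcggaaGCACG
T2: gagccgggcgggagaGGGAG
T3: gagtcaaggcgccccGTCCC
T4: gcccggggatctcagGACCG
T5: gggacaggtggacccTGGCC

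The members were long peaks, which the limit of 65 tags sets in part, since tags grow with length. Their median length was 1990 bp (exact 95% interval 1939 to 2041, n = 530), against 885 bp (876 to 893, n = 5882) for peaks with fewer tags and no T2 seed and 1707 bp (1668 to 1763, n = 195) for peaks of 65 or more tags with a T2 seed. Of the members, 498 (94%, 91.6 to 95.8) were 1500 bp or longer, compared with 141 of the 195 peaks with a T2 seed (72.3%, 65.5 to 78.5). Tag density differed less. The members had a median of 41.3 tags per kb (40.8 to 42), the peaks with fewer tags and no T2 seed 36.3 (36.2 to 36.3), and the peaks of 65 or more tags with a T2 seed 47.0 (45.6 to 48.9). Across the 530 members, tags and length had a Spearman rho of 0.85 and tags and tags per kb one of 0.36. Length and tags per kb had a rho of -0.08. Tags per kb contain both of the other measures, so these values describe the list only.

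Fold enrichment was low in most members. Its median was 3 (2.96 to 3.06, n = 530), below the 3.73 (3.69 to 3.75, n = 5882) of peaks with fewer tags and no T2 seed and below the 5.73 (5.41 to 6.14, n = 195) of peaks of 65 or more tags with a T2 seed. Every peak had passed a *P* limit of 0.001, and a peak with few tags needs a higher fold enrichment to pass. The call therefore sets part of the difference between members and peaks with fewer tags. Only 36 members (6.79%, 4.80 to 9.28) had a fold enrichment of 4 or more, whereas 174 of the 195 peaks with a T2 seed did (89.2%, 84.0 to 93.2). A MACS *P* of 1e-05 or smaller was given to 122 members (23%), against 15.8% of all 7748 peaks, and this share rests on the tags that the rule used. It was given to 156 of the 195 peaks with a T2 seed (80%, 73.7 to 85.4). Among peaks with fewer tags and no T2 seed the share was 8.13% (7.44 to 8.85). The FDR was 100% for 385 members (72.6%, 68.6 to 76.4) and for 42 of the 195 peaks with a T2 seed (21.5%, 16 to 28), but also for 89.7% (88.9 to 90.4) of peaks with fewer tags and no T2 seed and for 81.7% of all 7748 peaks. With more tags, members were longer and not more enriched, a trend that the same limit sets in part. The 252 members with 65 to 79 tags had a median length of 1750 bp and a median fold enrichment of 3.07, the 135 with 80 to 99 tags 2125 bp and 3.03, the 111 with 100 to 149 tags 2679 bp and 2.90, and the 32 with 150 to 505 tags 3964 bp and 2.80.

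**Figure D1:**
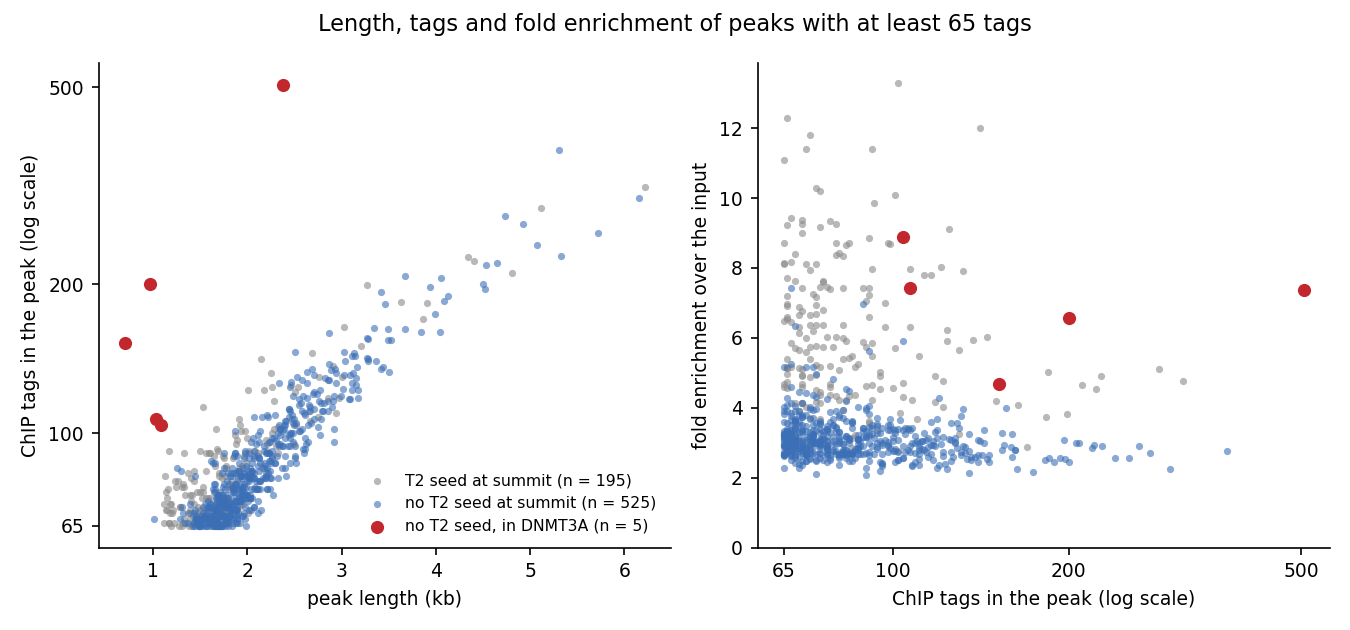
ChIP tags against peak length in kb, and fold enrichment over the input against ChIP tags, for every peak with 65 or more tags (tags on a log scale, each point 1 peak). The 525 members outside DNMT3A rise along a narrow band of length and tags and lie mostly under a fold enrichment of 4, the 5 members in DNMT3A stand above the band, and the 195 peaks with a T2 seed reach higher fold enrichment.

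The tag threshold cut through a continuous range. The 27 members with exactly 65 tags had a median length of 1664 bp, 39.1 tags per kb and a fold enrichment of 3.11. The 29 peaks with 64 tags and no T2 seed, just outside, had 1656 bp, 38.6 tags per kb and 3.05. Tags per kb ran from 32.7 to 45.5 inside and from 32.7 to 56.0 outside, so the ranges overlapped.

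**Figure D2:**
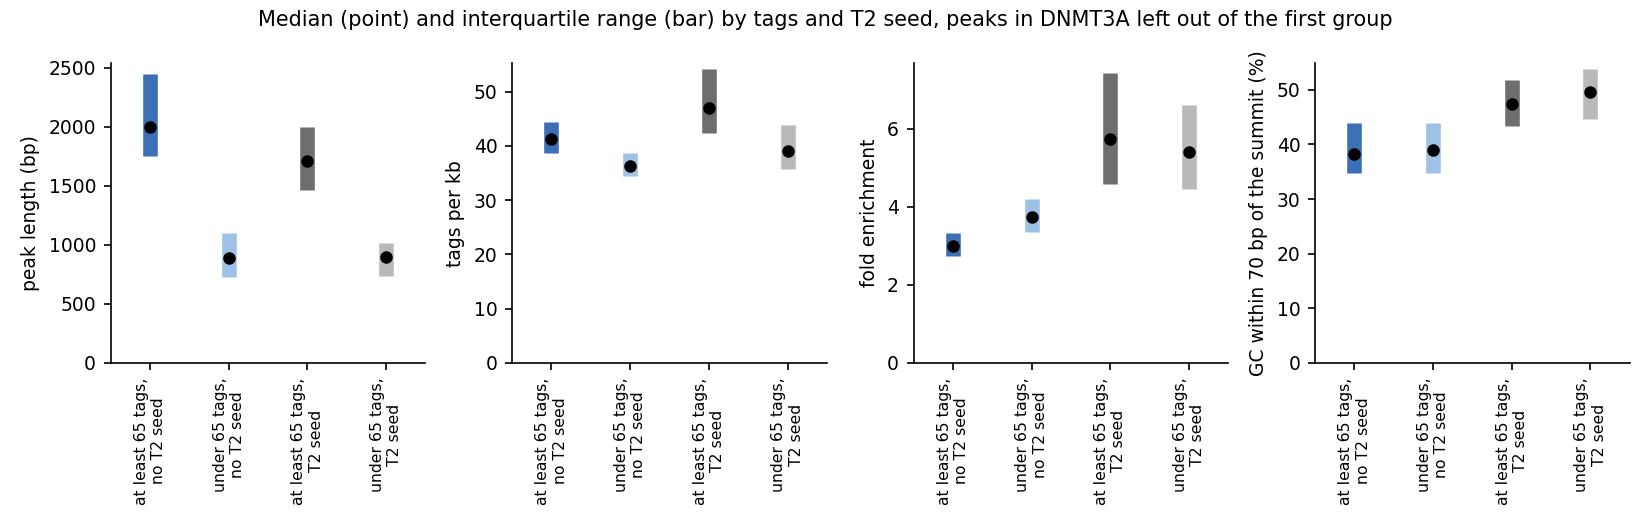
Median (point) and interquartile range (bar) of peak length in bp, tags per kb, fold enrichment and GC content within 70 bp of the summit in percent, for peaks split by 65 tags and by a T2 seed at the summit, with the 5 peaks in DNMT3A left out of the first group. Members had the longest peaks (median 1994 bp without DNMT3A) and the lowest fold enrichment (2.99).

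The 5 densest members lay side by side in *DNMT3A* itself, the gene whose catalytic domain the transfected plasmid encodes. From the 3′ end of the gene, the first spanned chr2:25456782-25457749 with 200 tags (207 tags per kb) and a fold enrichment of 6.58. The next, chr2:25458397-25459094, was the shortest member of all at 698 bp and held 152 tags (218 tags per kb), with a fold enrichment of 4.67. The third, chr2:25461553-25462584, had 107 tags (104 tags per kb) and a fold enrichment of 7.44. These 3 peaks were short and dense, at 698 to 1032 bp. The fourth, chr2:25462714-25465088, had 505 tags, the most of any member, at 213 tags per kb, a fold enrichment of 7.36 and a score (-10 times the log10 of *P*) of 546. The fifth, chr2:25466141-25467228, had 104 tags (95.6 tags per kb) and a fold enrichment of 8.89, the highest among the members. No other peak of the 7748, member or not, reached 95.6 tags per kb. The densest member outside *DNMT3A* had 70.3 tags per kb, and the densest peak that was no member, with a T2 seed in *ANP32B*, had 78.9. MACS gave these 5 peaks an FDR of 72.7%, 16.1%, 42.4%, 100% and 16.3%, in the same order.

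The 5 peaks lay over the exons that encode the end of the protein. *DNMT3A* is on the minus strand, and its full-length transcript (ENST00000321117, 23 exons in GENCODE 44) has 22 coding exons, 2 to 23. The coding sequence of 8 of them, within exons 15 to 23, was covered whole by members, and all 5 summits lay inside coding sequence, of exons 23, 22, 20, 17 and 16 in the order above. Of exons 15 to 23 only the 70 bp of exon 21 were outside the members. None of exons 2 to 14 touched a member. The members held 999 of the 2736 coding bases (36.5%) and together 1068 tags over 6161 bp, or 173 tags per kb. The fourth peak had a T2 seed with NGG 130 bp from its summit, and the other 4 had none. The remaining 525 members had a median of 41.3 tags per kb, and 5 of them had the summit in coding sequence. Tags from the plasmid and tags from the chromosomal gene cannot be told apart in the list, because the plasmid carries human *DNMT3A* coding sequence and the list gives positions in the human genome only.

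The 141 bases around each of these 5 summits are shown on the coding strand (hg19, minus strand), since these peaks have the most tags per kb of length in the list. Capitals mark the coding bases of the exon at the summit.
exon 23, chr2:25457145-25457285: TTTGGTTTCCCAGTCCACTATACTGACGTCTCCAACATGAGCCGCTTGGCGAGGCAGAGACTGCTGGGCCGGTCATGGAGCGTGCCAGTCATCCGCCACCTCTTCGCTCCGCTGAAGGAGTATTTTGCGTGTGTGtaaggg
exon 22, chr2:25458557-25458697: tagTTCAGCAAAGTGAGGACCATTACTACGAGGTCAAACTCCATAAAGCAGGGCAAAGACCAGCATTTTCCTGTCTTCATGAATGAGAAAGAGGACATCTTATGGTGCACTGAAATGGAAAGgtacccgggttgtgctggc
exon 20, chr2:25461971-25462111: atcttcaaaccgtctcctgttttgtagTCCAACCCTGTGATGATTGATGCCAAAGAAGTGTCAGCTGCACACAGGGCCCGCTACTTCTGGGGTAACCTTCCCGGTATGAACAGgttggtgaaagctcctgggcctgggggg
exon 17, chr2:25464454-25464594: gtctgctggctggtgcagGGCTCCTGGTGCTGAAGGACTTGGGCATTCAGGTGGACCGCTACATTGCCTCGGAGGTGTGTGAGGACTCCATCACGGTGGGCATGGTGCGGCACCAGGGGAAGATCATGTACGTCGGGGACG
exon 16, chr2:25466737-25466877: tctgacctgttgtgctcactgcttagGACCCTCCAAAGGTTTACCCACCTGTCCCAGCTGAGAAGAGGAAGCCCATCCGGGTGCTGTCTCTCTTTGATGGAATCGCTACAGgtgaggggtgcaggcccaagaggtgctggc

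In these windows at most 3 bases of T2 were matched in an unbroken run from an NGG PAM, and the best site differed from the last 11 bases of T2 at 4 or 5 positions. The windows held 17 to 29 NGG sites on both strands and 46.1% to 62.4% GC. Within 70 bp of the summit the median GC content of all members was 39.0% (38.3 to 39.7).

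Outside *DNMT3A* the members with the most tags were long peaks of low fold enrichment. The peak with 373 tags, chr1:144526525-144531830, lay 164071 bp from the nearest protein-coding gene, *PPIAL4B*, was 5306 bp long and had a fold enrichment of 2.76. Of its start positions, 81.9% give a 49-base tag that is unique in the reference. The longest member, chr1:183025284-183031434 in *LAMC1*, which encodes a laminin chain of basement membranes, was 6151 bp long with 298 tags and a fold enrichment of 2.26. A peak with 275 tags at chr2:91794014-91798750 lay 198911 bp from an assembly gap of at least 1 Mb, with unique 49-base tags at 85.4% of its positions and *RPIA* as the nearest protein-coding gene, 2746784 bp away. These 3 peaks had 70.3, 48.4 and 58.1 tags per kb.

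*KLF12*, which encodes a transcriptional repressor of the Krüppel-like family, held a peak of 264 tags (fold enrichment 2.91, score 92.9) at chr13:74559342-74564262, and a second peak of 219 tags (fold enrichment 2.86) lay 139995 bp from the gene. Peaks of 254 tags in *ELP2*, an Elongator subunit, of 240 tags in *UBE2U*, a ubiquitin-conjugating enzyme, of 228 tags in *CNTNAP2*, a neuronal adhesion protein of the neurexin family, and of 221 tags in *LYST*, a regulator of lysosomal traffic, completed the 10 highest. Their fold enrichment was 2.58, 2.58, 2.90 and 2.93, and their lengths were 4653 to 5718 bp.

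The summit windows of the *LAMC1* and *KLF12* peaks are shown as examples of a long member (hg19, plus strand).
*LAMC1*, chr1:183030068-183030208: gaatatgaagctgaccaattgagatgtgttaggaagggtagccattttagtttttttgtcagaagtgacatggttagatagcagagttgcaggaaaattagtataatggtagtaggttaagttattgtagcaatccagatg
*KLF12*, chr13:74562394-74562534: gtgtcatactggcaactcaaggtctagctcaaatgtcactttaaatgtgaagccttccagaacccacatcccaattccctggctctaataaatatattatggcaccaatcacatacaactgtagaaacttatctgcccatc

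They held 10 and 15 NGG sites and 36.2% and 41.1% GC, and matched T2 over 0 bases and 1 base from the PAM. Over all members, a run of 0 bases was the best in 72, of 1 base in 152, of 2 bases in 205, of 3 bases in 81 and of 4 bases in 20, where the rule allows no more than 4. GC content over the whole peak had a median of 38.6% (38.2 to 39.2) in members, 39.3% (39.2 to 39.5) in peaks with fewer tags and no T2 seed and 40.7% (39.8 to 41.4) in peaks of 65 or more tags with a T2 seed. In the 70 bp on each side of the summit the longest run of purines or pyrimidines was 9 bases long (median, 8 to 9) in members and 9 (9 to 9) in peaks with fewer tags and no T2 seed, but 19 (18 to 21) in peaks of 65 or more tags with a T2 seed. The T2 seed is itself made of G and A, so the presence of a seed sets part of the last value.

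The rule looked only near the summit, and 169 members (31.9%, 27.9 to 36.0) had a T2 seed with NGG elsewhere in the peak, compared with 990 of 5882 peaks with fewer tags and no T2 seed (16.8%, 15.9 to 17.8). Longer peaks have more room for it. Per kb of sequence outside the window there were 0.242 such sites in members and 0.312 in the peaks with fewer tags. The nearest site in these 169 members was centred 428 bp from the summit (median), in 26 of them no farther than 150 bp and in 74 beyond 500 bp.

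A match of the last 11 bases of T2 with NGG lay inside 10 members (1.89%, 0.908 to 3.44) but away from the summit, against 84 of 5882 peaks with fewer tags and no T2 seed (1.43%, 1.14 to 1.77). Apart from the *KLF12* peak of 264 tags, these members had 65 to 104 tags, where the median of all members was 81. The *HS2ST1* peak (chr1:87430152-87431161), in the gene of a heparan sulfate sulfotransferase, was short at 1010 bp and had 67 tags, 66.3 tags per kb and a fold enrichment of 7.43, the highest outside *DNMT3A*. The sites of 9 of these members, in hg19 and all on the plus strand, are shown with the 20 bases aligned to T2 and the PAM, where capitals mark bases identical to T2.
*KLF12*, chr13:74561745-74561767: GtGggaGagGGGAGAGGGAGagg
*HS2ST1*, chr1:87430321-87430343: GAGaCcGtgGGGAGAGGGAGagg
*OAZ3*, chr1:151742591-151742613: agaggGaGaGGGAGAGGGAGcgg
near *SESN3*, chr11:95055253-95055275: agaggGaGaGGGAGAGGGAGagg
near *IFT81*, chr12:110530955-110530977: agaggGaGaGGGAGAGGGAGagg
near *KLHL25*, chr15:86442847-86442869: ctGagtGGtGGGAGAGGGAGggg
near *MAN1A1*, chr6:119788685-119788707: GtatgtattGGGAGAGGGAGtgg
near *NMBR*, chr6:141443765-141443787: GAcaaGaGaGGGAGAGGGAGagg
near *ZCCHC13*, chrX:73544212-73544234: GgaagaaagGGGAGAGGGAGggg

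The centres of the 11 bases and PAM lay 703.5, 155.5, 548.5, 885.5, 81.5, 209.5, 150.5, 76.5 and 160.5 bp from the summits, in the order shown. The fold enrichment of these 9 members was 2.91, 7.43, 4.13, 3.14, 5.16, 5.26, 5.92, 3.60 and 4.46. The tenth member, in *CHD7*, a chromatin remodeller, had 65 tags and a fold enrichment of 3.91. In all, 6 of the 10 had a fold enrichment of 4 or more, a value that 36 of 530 members reached.

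Within 70 bp of the summit, 5 members (0.943%, 0.307 to 2.19) had a site that differed from the last 11 bases of T2 at 1 or 2 positions, compared with 54 of 5882 peaks with fewer tags and no T2 seed (0.918%, 0.690 to 1.20) and 181 of 195 peaks of 65 or more tags with a T2 seed (92.8%, 88.2 to 96.0). Just 1 position differed in *PTPRC*, the gene of the leukocyte phosphatase CD45 (90 tags, fold enrichment 3.94), and in a peak 318459 bp from *NSUN3* (91 tags, fold enrichment 4.06). Their sites are shown in the same way, with the difference inside the seed written as the base of T2, its position counted from 1 at the 5′ end of T2, and the base of the site.
*PTPRC*, chr1:198720582-198720604, minus strand, G17A: GAGatttagGGGAGAGaGAGggg
near *NSUN3*, chr3:94169092-94169114, plus strand, G16A: atcagGGaCGGGAGAaGGAGggg

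Sites for the other gRNAs were rare. A 5-base seed of T1, T3, T4 or T5 with NGG lay within 70 bp of the summit in 20 members (3.77%, 2.32 to 5.77), against 3.37% (2.92 to 3.86) of peaks with fewer tags and no T2 seed. The T1 seed was found in 1 member, the T3 seed in 4, the T4 seed in 7 and the T5 seed in 9, and 1 of these members had the seeds of both T3 and T4. That member, 2172 bp from the crystallin gene *CRYGN*, had 89 tags and a fold enrichment of 6.97. The member with the T1 seed, 59196 bp from *ZNF648*, had 68 tags and a fold enrichment of 6.33. Those with the most tags were in *GPC6*, a glypican gene (T5, 197 tags), *CDKAL1*, a tRNA-modifying enzyme (T4, 160 tags), *SIPA1L2* (T4, 156 tags) and *B4GALT6*, a lactosylceramide synthase (T5, 143 tags), and 64785 bp from the transcription factor gene *KLF5* (T5, 108 tags). Their fold enrichment was 2.55, 3.25, 3.99, 2.99 and 2.38. A T2 seed followed by NAG in place of NGG lay within 70 bp of the summit in 18 members (3.40%, 2.03 to 5.31) and in 2.55% (2.16 to 2.99) of peaks with fewer tags and no T2 seed.

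The members were spread unevenly over the chromosomes. Chromosome 1 held 187 of 530 (35.3%, 31.2 to 39.5) but only 691 of the 5882 peaks with fewer tags and no T2 seed (11.7%, 10.9 to 12.6), and it makes up 7.94% of the sequenced length. It had 0.830 members per Mb (0.715 to 0.958). A high share there was not particular to the members. Of the 195 peaks of 65 or more tags with a T2 seed, 51 lay on chromosome 1 (26.2%, 20.1 to 32.9). That interval overlaps the interval of the members. With fewer tags and a T2 seed, 113 of 1141 peaks did (9.9%, 8.23 to 11.8). Chromosome 6 held 65 members (0.388 per Mb, 0.300 to 0.495), and chromosomes 1 and 6 together held 47.5% of them. No member lay on chromosome 19 or 20, where 32 and 93 peaks without a T2 seed were found, and an exact interval allows shares of up to 10.9% and 3.89% there. Chromosome 14 had 1 member among 212 peaks without a T2 seed (0.472%, 0.0119 to 2.60), and chromosome 16 had 1 among 121.

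Among peaks without a T2 seed, the share with 65 or more tags was 8.27% over all chromosomes. It was 30.1% (19.9 to 42.0, 22 of 73) on chromosome 18, 21.3% (18.6 to 24.2) on chromosome 1, 16.3% (10.4 to 23.8, 21 of 129) on chromosome 13, 13.1% (10.2 to 16.3) on chromosome 6, 11% (7.51 to 15.5) on chromosome 15 and 10.8% (7.57 to 14.9) on chromosome X. It was 8.29% (5.81 to 11.4) on chromosome 10, which carries *uPA*, and 3.04% (1.75 to 4.88) on chromosome 2, where 5 of the 16 members were those in *DNMT3A*. The intervals of chromosomes 1, 6, 13 and 18 lay above 8.27%, a share that includes these chromosomes. The rule used the tags, and neighbouring peaks need not be independent, so this is a description and not a test. The median of tags per kb of peaks with fewer tags and no T2 seed was 37 on chromosome 1, 37 on chromosome 6, 38.9 on chromosome 18, 35.7 on chromosome 13 and 35.1 on chromosome 19, against 36.3 over all chromosomes. The median length of these peaks was 980 bp on chromosome 1, 985 bp on chromosome 6 and 1033 bp on chromosome 18. On chromosomes 13 and 19 it was 824 and 686 bp, against 885 bp over all chromosomes. The part of local tag density or peak length in these shares was not tested.

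Along a chromosome, too, the members were placed unevenly. When chromosomes were divided into stretches of 10 Mb, 134 of the 294 stretches with a peak without a T2 seed had a member, and the 10 stretches with the most members held 160 of them (30.2%). These 10 stretches were picked by their count of members. In them, 38.6% of the 415 peaks without a T2 seed were members, and elsewhere 6.17%. The densest were chromosome 1 from 220 to 230 Mb, with 30 members among 63 peaks without a T2 seed, and from 230 to 240 Mb, with 26 among 58. In chromosome 13 from 70 to 80 Mb, 10 of 11 such peaks were members. The peaks with fewer tags had a median of 37.7 and 38.0 tags per kb in the first and second of these stretches and 41.4 in the last. Another member lay within 100 kb of 145 members (27.4%) and within 1 Mb of 383 (72.3%), and the median distance to the nearest was 329 kb. Such distances were not computed for other peaks, so these values alone do not show clustering.

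The longest series of members that followed each other within 1 Mb was on chromosome 1, where 49 members with 66 to 221 tags covered 12.1 Mb from *CNIH3* to *ACTN2* (chr1:224854719-236925837), and the same span held 102 peaks without a T2 seed. It took in *LBR*, the lamin B receptor, *ITPKB*, *CDC42BPA*, *RAB4A*, *DISC1*, *SIPA1L2* and *LYST*. Series of 10 members lay at chr1:62357059-64672916, from *PATJ* to *UBE2U*, where they were 10 of 15 peaks without a T2 seed, and at chr1:75199443-80092336, from *TYW3* to *ADGRL4*, where they were 10 of 17. In a further series of 10 members on chromosome 1, whose position is not reported here, they were 10 of 42. On chromosome 6, 5 members with 104 to 143 tags lay at chr6:124648624-125528174 in *NKAIN2* and *TPD52L1*, with no other peak without a T2 seed among them. On chromosome 13 the same held for 6 members with 67 to 200 tags at chr13:93240636-95335921, over the glypican genes *GPC5* and *GPC6*. Each series was picked for its members and starts and ends at a member. Its share of members is therefore raised by construction and cannot be set against the share over all chromosomes. The member nearest to *uPA* (*PLAU*, chr10:75668935-75677254) was 262 kb away in *ADK*, the gene of adenosine kinase, with 80 tags and a fold enrichment of 3.30.

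More members had the summit inside a protein-coding gene than outside. A protein-coding gene contained the summit of 298 members (56.2%, 51.9 to 60.5), against 48.8% (47.5 to 50.1, n = 5882) of peaks with fewer tags and no T2 seed and 47.2% (40 to 54.4, n = 195) of peaks of 65 or more tags with a T2 seed. Of all members, 219 (41.3%, 37.1 to 45.6) overlapped a gene body without touching an exon, against 40.6% (39.3 to 41.8) of peaks with fewer tags and no T2 seed, so the intervals overlapped. Another 219 (41.3%, 37.1 to 45.6) touched neither a protein-coding gene nor a promoter, against 48.8% (47.5 to 50.1) of those peaks. A lncRNA gene was overlapped by 100 members (18.9%, 15.6 to 22.5), and by 17.5% (16.5 to 18.5) of peaks with fewer tags and no T2 seed. The median distance from the summit to the nearest start of a protein-coding transcript was 37710 bp (29389 to 44862) in members and 38346 bp (36359 to 40351) in peaks with fewer tags and no T2 seed. The summits of 40 members (7.55%, 5.45 to 10.1) lay in genes of 500 kb or more, against 6.39% (5.78 to 7.05) of those peaks. Those with the most tags were in *CNTNAP2*, *GPC6*, *TTC28* (160 tags, fold enrichment 2.61), *CDKAL1* and *NKAIN2* (143 tags, fold enrichment 3.38).

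Exons were touched by 82 members (15.5%, 12.5 to 18.8) and coding exons by 65 (12.3%, 9.59 to 15.4), against 8.64% (7.93 to 9.38) and 6.24% (5.63 to 6.89) of peaks with fewer tags and no T2 seed. Long peaks have more room to touch an exon. The summit itself lay in coding sequence in 10 members (1.89%, 0.908 to 3.44), and in 5 of 525 outside *DNMT3A* (0.952%, 0.310 to 2.21), against 0.799% (0.588 to 1.06) of peaks with fewer tags and no T2 seed and 0 of 195 peaks of 65 or more tags with a T2 seed, where the interval allows up to 1.87%. The 5 others, named after their values were seen, were in *ELP2* (254 tags), *FUCA2*, a fucosidase gene (101 tags), *KMT2C*, a histone H3 lysine methyltransferase gene (78 tags), *GALNT11*, which starts mucin-type glycosylation (77 tags), and *MYOF*, the gene of myoferlin (66 tags). They had 35.7 to 44.4 tags per kb and a fold enrichment of 2.44 to 3.14.

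Besides *DNMT3A*, *ELP2*, *UBE2U* and *LYST*, the members over coding exons with the most tags were in the *NPY4R2* region (154 tags), *B4GALT6* (143 tags), *RAB4A*, an endosomal GTPase (138 tags), and *NSD1*, a histone H3 lysine 36 methyltransferase (129 tags). Their fold enrichment was 3.28, 2.99, 2.61 and 2.85. *NPY4R2* is a near-identical copy of *NPY4R*, the receptor of pancreatic polypeptide, and the peak at chr10:47083481-47086974 is uncertain for that reason, although 98.7% of its positions give a unique 49-base tag. The 3′ UTR of a gene was touched by 23 members (4.34%, 2.77 to 6.44) and contained the summit in 12 (2.26%, 1.18 to 3.92), against 2.75% (2.35 to 3.21) and 1.97% (1.63 to 2.36) of peaks with fewer tags and no T2 seed. A 5′ UTR was touched by 17 members (3.21%, 1.88 to 5.09), against 1.29% (1.02 to 1.61) of peaks with fewer tags and no T2 seed. Here, too, long peaks have more room. No member had its summit in a 5′ UTR, which allows a share of up to 0.694%. Of peaks with fewer tags and no T2 seed, 0.187% (0.0934 to 0.334) did.

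**Figure D3:**
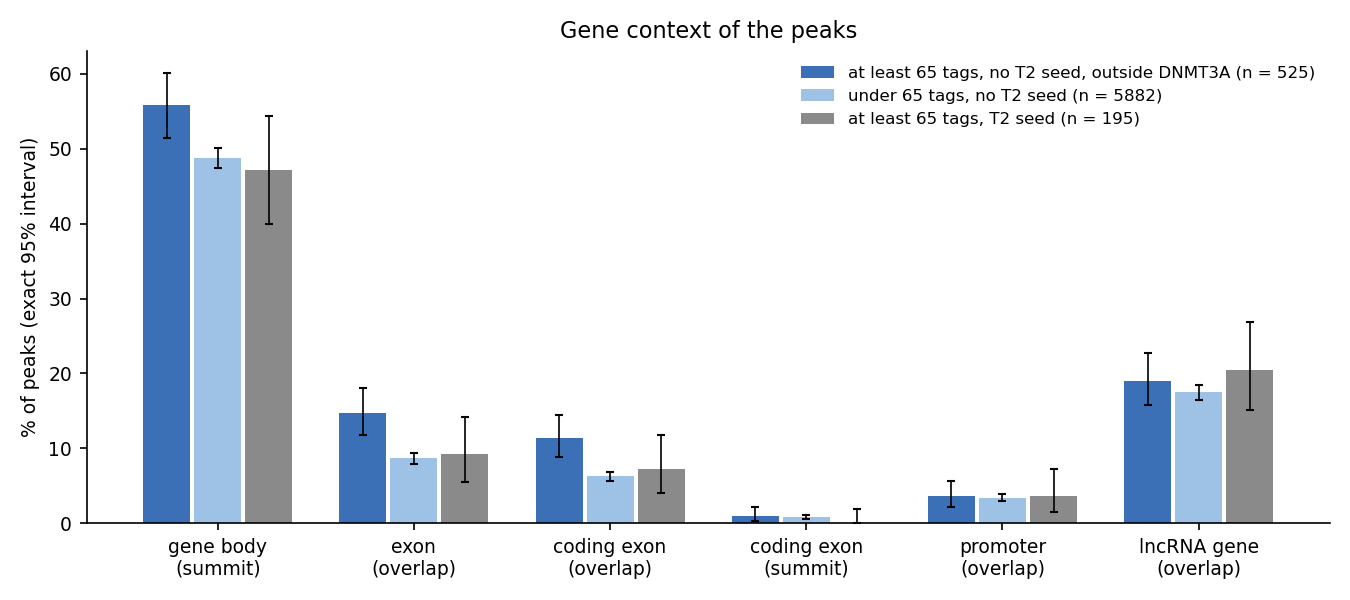
Percent of peaks in or over gene features, with exact 95% intervals as error bars, for the 525 members outside DNMT3A, the 5882 peaks with fewer tags and no T2 seed and the 195 peaks of 65 or more tags with a T2 seed. Coding exons were touched by 11.4% of these members and 6.24% of the peaks with fewer tags, while summits in coding sequence made up 0.952% and 0.799%.

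Promoters, taken as the 2 kb upstream of protein-coding transcript starts, were touched by 19 members (3.58%, 2.17 to 5.54) and by 3.37% (2.92 to 3.86) of peaks with fewer tags and no T2 seed, so the intervals overlapped. The summit was in a promoter in 10 members (1.89%), against 2.40% (2.02 to 2.82) of those peaks. Of the 19 members that touched a promoter, the 10 with the most tags lay at *UBE2U* (240 tags), *TCEAL8* (193 tags), *DSG1*, a desmosomal cadherin gene (159 tags), *ST6GALNAC3*, a sialyltransferase gene (154 tags), *NPY4R2* (154 tags), *B4GALT6* (143 tags), *SNX7*, a sorting nexin gene (103 tags), *TYW3* and the neighbouring *CRYZ* (100 tags), *ABL2*, a tyrosine kinase gene (90 tags), and *ZPLD1* (83 tags). These 10 had a fold enrichment between 2.58 and 3.66.

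Several genes held more than 1 member. The 298 summits in genes fell in 256 genes, of which 34 held 2 or more members, and these accounted for 76 members. After *DNMT3A* with 5 came *NKAIN2*, a gene of 1021777 bp for a protein that binds Na/K-ATPase, with 4 members of 112, 126, 136 and 143 tags, and *LYST*, *GALNT11* and *CMSS1* with 3 each. The *LYST* members had 87, 104 and 221 tags, those in *GALNT11* 66, 77 and 118, and those in *CMSS1* 72, 82 and 120. Another 29 genes held 2 members each, with 65 to 197 tags: *ADAMTSL1*, *AHI1*, *ARFGEF3*, *ARMH3*, *BBS4*, *BTRC*, *CDKAL1*, *CLCN1*, *DISC1*, *FHOD3*, *GAREM1*, *GMDS*, *GPC6*, *KPNA6*, *LEPR*, *NOS1AP*, *NOTCH2*, *PATJ*, *PCNX2*, *PDE4B*, *PDE8A*, *PLEKHG1*, *RNLS*, *SLC35F3*, *SRBD1*, *ST6GALNAC3*, *SUSD4*, *SYTL4* and *TTC28*. The 4 *NKAIN2* members had 39.6 to 46.0 tags per kb and a fold enrichment of 2.51 to 3.38, whereas the *DNMT3A* members had 95.6 to 218 tags per kb. Of clustered gene families, zinc finger genes were touched by 4 members, and olfactory receptor, protocadherin, histone, HLA, immunoglobulin or T-cell receptor, snRNA and rRNA genes by none. Peaks with fewer tags and no T2 seed touched zinc finger genes in 0.442% of cases and each of the other families in at most 0.085%, so a count of 0 among 530 members is not a result about them.

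Few members had a low share of unique sequence or lay near an assembly gap, but the members with 373 and 275 tags had unique shares of 81.9% and 85.4%. The part of either in the number of tags was not tested. The share of positions whose 49-base tag is unique in the reference had a median of 100%, and it was under 95% in 25 members (4.72%, 3.08 to 6.88), against 8.08% (7.39 to 8.80) of peaks with fewer tags and no T2 seed. Per kb of unique positions the members had a median of 41.7 tags (41.0 to 42.3). Within 1 Mb of an assembly gap of 1 Mb or more lay 4 members (0.755%, 0.206 to 1.92), against 0.425% (0.275 to 0.627) of those peaks. Marked repeats were not analysed here.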

How the data were processed

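Members and gene lists were chosen with earlier results of these data known. Per the methods, the authors aligned single-end reads to hg19 (SOAP2), drew the same number of unique alignments from ChIP and input, and ran MACS 1.4.2 with a *P* limit of 0.001 (band width 300 bp, d = 200 bp). The methods add that shared peaks of the triplicates were kept and those in repeats or rDNA taken out. Whether either step was applied to the list used here is not known. Its 7757 peaks are many more than the enriched peaks that the paper reports, so it is not that final set. A supplementary figure legend of the paper counts all off-target binding sites at nearly the size of this list. Whether those sites are this list was not checked, nor which members belong to the enriched peaks. The deposited tags are raw counts per peak. Per the file headers, fold enrichment is a ratio of ChIP to a local background from the input, the score is -10 times log10 of *P*, and the FDR is a percent. Tags per kb were computed from tags and length. Positions were taken as 1-based, with summits at start plus offset minus 1. A T2 site lay wholly within 70 bp of the summit. The *uPA* gRNAs came from the study's supplementary table. The 9 peaks on other contigs or chromosome Y were left out.

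Genes were basic protein-coding transcripts of GENCODE 44 lifted to GRCh37. For DNMT3A the full-length transcript was used. A 49-base tag was called unique if it matched the reference exactly once on both strands. Mapping allowed mismatches, so this share is an upper limit. Sites were searched with Python 3.11.15, pysam 0.24.0 and numba 0.67.0, intervals computed with scipy 1.17.1 (exact binomial for shares, order statistics for medians), and the searches were tested on simulated data. Named members were the 10 with the most tags, the 5 with the most tags per kb, the 5 with the highest fold enrichment, the longest and shortest, the 10 with the most tags over coding exons and over promoters, the 5 with the most tags in genes of 500 kb or more and with other gRNA seeds, genes with 2 or more members, and the member nearest *PLAU*. Members with matches of 11 bases, with 1 difference, or in series were named after their values were seen. Alternatives changed the tag threshold, window, seed, summit position, *P*, chromosomes, overlap and scale. Some loci are not reported here.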

Additional observations from a re-analysis of the deposited data

Results flagged for a closer look

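Of the 9 peaks outside chromosomes 1 to 22 and X, which the comparisons did not use, 2 had 65 or more tags. A peak of 2337 bp on the unplaced contig chrUn_gl000220 held 141 tags (60.3 tags per kb) with a fold enrichment of 3.89, and a peak of 2004 bp on chrUn_gl000225 held 99 tags (49.4 tags per kb) with a fold enrichment of 2.80. They were singled out because they carry a signal in data outside the main measurement. Their T2 sites were not searched, since the reference names these contigs differently.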

How the results depend on the processing

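For 10 results, 125 values were computed under 17 other settings, of which 93 stayed within the interval of the value reported, or within 1.5 times for the number of members, and 32 moved. With a threshold of 50, 80 or 100 tags there were 1179, 278 and 143 members, with a median length of 1587, 2408 and 2789 bp, 39.8, 42.6 and 44 tags per kb, a fold enrichment of 3.19, 2.95 and 2.89, and a T2 seed elsewhere in 26.7%, 38.1% and 39.2%. Chromosome 1 held 27.5% at 50 tags, and at 100 tags coding exons were touched by 16.8% and promoters by 5.59%. With *P* at or below 1e-05, 122 members had a median length of 1926 bp, a fold enrichment of 3.42, a GC content of 40.1%, 27% on chromosome 1 and a T2 seed elsewhere in 36.1%. Without chromosome 1, 343 members had a GC content of 37.9%. Excluding peaks with a T2 seed anywhere gave a GC content of 38%. Counting lncRNA genes raised gene overlap to 70.9%. With summits only, coding exons fell to 1.89% and promoters to 1.89%. A seed with NGG or NAG was found elsewhere in 50.6% and one of 8 bases in 5%. Leaving out the *DNMT3A* members, an alternative chosen after seeing the data, moved none of the 10 values beyond its interval. The whole-peak setting allows no T2 seed elsewhere, and the share on chromosome 1 has no value without it. No paired analysis was possible because there was 1 ChIP sample. With no replicates and no input counts per peak, precision beyond counting error is unknown.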
